A study of Danio rerio with 2 samples.

Results

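Open chromatin at genes of the Notch pathway, and at the her, hes and hey repressor genes, many of which act below it, was compared between a wild type and an npas4l mutant zebrafish embryo. Members were the regions of the deposited table whose assigned gene symbol named a Delta or Jagged ligand, a Notch receptor, a fringe, Mib, Numb, Deltex, Rbpj, Maml or Nrarp gene, or a her, hes or hey gene with a number. This rule took 86 of 35854 regions, assigned to 46 genes, and used no measured value. Of these, 17 regions lay at 9 ligand genes, 9 at 4 receptor genes, 22 at 13 modifier genes and 34 at 16 her, hes and hey genes. The other 4 regions carried symbols that match the rule by their letters alone (jagn1a, jagn1b, mibp, mibp2), name no Notch gene and are described apart. All 86 regions passed the minimum mean of 20 normalised reads.

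ATAC-seq uses the Tn5 transposase to insert sequencing adapters into open DNA, so that a region's read count measures its accessibility. Each library came from 1 whole embryo at the 1-somite stage after removal of chorion and yolk. The wild type library was from an embryo described as wild type AB, and the mutant library was from an embryo homozygous for the bns297 allele of npas4l, with no strain of its own given. Npas4l is a bHLH-PAS transcription factor required at the start of endothelial and blood cell specification. With 1 library per genotype no difference between genotypes could be tested, and no p-value is given.

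In Notch signalling a Delta or Jagged ligand on one cell binds a Notch receptor on its neighbour. The receptor is then cut, and its intracellular part joins the DNA-binding protein Rbpj and a Mastermind-like (Maml) coactivator to switch on target genes, among them bHLH repressors of the Her, Hes and Hey families. At the onset of somite formation in zebrafish the pathway is known for keeping the segmentation clock of the presomitic mesoderm in step, through dlc, dld, her1 and her7, and for limiting the number of neurons in the neural plate, through dla, dld and the her4 and her15 genes. In endothelial cells, dll4, hey2 and other members act later in arterial fate.

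Values are read counts normalised by the authors. Log2 ratios are of mutant over wild type, with 1 added to both values, so that folds of low regions are understated. The 95% interval in parentheses comes from the split of the region's reads by the exact Clopper-Pearson method. It covers only counting error, not the spread between embryos, because each genotype had 1 library. It may fall short even of counting error, because PCR copies cannot be told from separate molecules without molecular identifiers. The regions held 7853828 recovered reads in wild type and 7066666 in the mutant, with a median normalised value of 94 in each library. The library scaling left a difference between kinds of region. Over all regions the median log2 ratio was 0.00, over the 13036 regions within 1 kb of a transcription start site (TSS) it was 0.11, over the 4448 assigned regions beyond 1 kb 0.00, and over the 18370 regions without an assigned gene −0.12. At least 2-fold lower were 4.03% of all regions and 1.75% of those with an assigned gene, and at least 2-fold higher 3.78% and 3.19%. All regions split into 1445 lower and 1357 higher by this rule, but into 1038 and 1666 once the trend with level was removed. With level and promoter class medians removed they split into 967 and 1627. The promoter classes were regions within 1 kb of a TSS and all other regions, with or without an assigned gene. In a whole embryo, fewer cells of a type and less open chromatin per cell cannot be told apart.

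Regions at Notch pathway genes lay lower in the mutant library, by small amounts. Of the 82 regions at Notch genes, 53 had a log2 ratio below 0, and their median was −0.13 with a range from −1.17 to 0.85. Among all regions with an assigned gene, 39.5% lay below 0 and the median was 0.08. Beyond the counting interval, 26 of the 82 were lower and 4 higher, which is 31.7% and 4.88%, beside 12.0% and 25.3% of all assigned regions. The 82 regions were deeper, with a median mean of 187.75 normalised reads beside 138, and deeper regions have narrower intervals. Only 2 regions were at least 2-fold lower, inside notch2 and near her4.4, and none was at least 2-fold higher. The sum over the 82 regions was 23585 normalised reads in the mutant library against 26026 in wild type, a log2 ratio of −0.14 (−0.17 to −0.12).

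**Figure D1:**
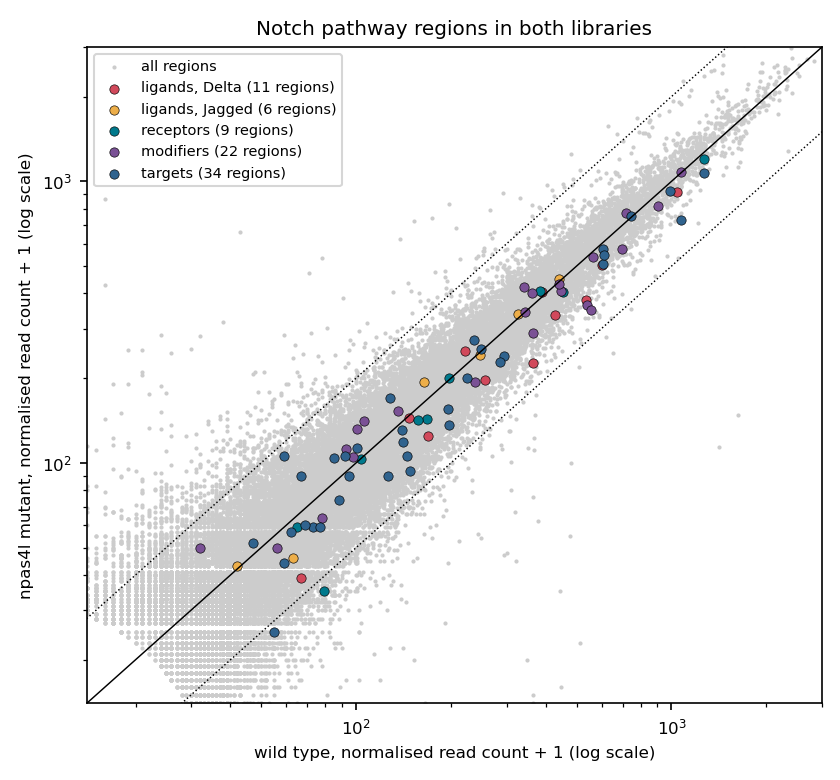
Normalised read count plus 1 of each region in the wild type (x axis) and the npas4l mutant library (y axis), both on log scales. Grey points are all regions within the axes, coloured points the 82 regions at Notch genes by role, the solid line equality and the dotted lines 2-fold differences. Of the coloured points 53 lie under the line of equality, and 2 of them lie beyond the lower dotted line.

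The classes differed in how far they lay from 0. Targets here are all her, hes and hey genes of the rule, also those such as her9 whose expression is known not to need Notch. They had a median of −0.19 over 34 regions, of which 24 lay below 0. Ligands had a median of −0.18 over 17 regions, of which 11 lay below 0. Receptors followed with −0.14 over 9 regions, 7 of them below 0. Modifiers were split evenly, with 11 of 22 regions below 0 and −0.01 as the median. Ligands had 8 regions lower and 0 higher beyond the counting interval, receptors 1 and 0, modifiers 6 and 2, and targets 11 and 2. The lower shares were 47.1%, 11.1%, 27.3% and 32.4% in that order, beside 12.0% of all assigned regions. The higher shares of modifiers and targets were 9.09% and 5.88%, beside 25.3%. On the lower side the assigned receptor regions were thus near the share of all assigned regions. Unassigned regions nearest to receptor genes, within 50 kb, were not. Of these 22, 11 were lower and 1 higher beyond the interval (50.0% and 4.55%). Of all regions without an assigned gene, 23.7% were lower and 15.0% higher. The 22 regions were deeper, with a median mean of 160 normalised reads beside 69. Deeper regions have narrower intervals, and shares at matched depth were not taken. Medians of the 4 classes stayed below 0 under each of 3 other scalings.

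Among assigned regions, Delta ligand genes carried nearly all of the lower ligand values. Over the 11 regions of dla, dlb, dlc, dld and dll4 the sum was 3510 normalised reads in the mutant library against 4211 in wild type, a log2 ratio of −0.26 (−0.33 to −0.20). The median over regions was −0.35, 9 of 11 regions lay below 0, and 8 were lower and 0 higher beyond the counting interval. The lower share was 72.7%, beside 12.0% of all assigned regions, of which 25.3% were higher. Each of the 5 genes had at least 1 region that was lower beyond it. The split of ligands into Delta and Jagged was made after the values were seen.

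At dlc (ENSDARG00000002336), a Delta gene that oscillates with the segmentation clock, the 3 regions had unlike values. The upstream region, chromosome 15, 20535075 to 20535587, lay 2761 bp from the TSS and held 225 normalised reads in the mutant library against 363 in wild type, a log2 ratio of −0.69 (−0.94 to −0.45), or 1.61-fold lower. The region 907 bp upstream of the TSS held 124 against 168 (−0.44, −0.79 to −0.10), and the one inside the gene body 143 against 146 (−0.03, −0.37 to 0.31). The 2 upstream regions were thus lower, while the values inside the gene nearly coincided. The interval inside the gene overlapped that of the region 907 bp upstream, and a difference between positions was not tested.

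For dla (ENSDARG00000010791), the Delta gene of early neurons, both regions were lower in the mutant library. The promoter region on chromosome 1, 53352921 to 53354066, held 915 against 1038 normalised reads (−0.18, −0.31 to −0.05). The region inside the gene, 53355502 to 53355871, held 378 against 536 (−0.50, −0.70 to −0.31), which is 1.42-fold lower. The larger difference lay within the gene body, whereas at dlc it lay upstream, and this contrast was not tested.

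The deltaD gene dld (ENSDARG00000020219), expressed in both neural plate and presomitic mesoderm, was lower at its TSS and inside the gene but not upstream. On chromosome 13 the TSS region, 5953197 to 5953562, held 196 against 256 normalised reads (−0.38, −0.67 to −0.11). The intragenic region, 5951174 to 5951788, held 505 against 602 (−0.25, −0.43 to −0.08), and the upstream region, 5955135 to 5955961, held 405 against 389 (0.06, −0.15 to 0.26). For dlb (ENSDARG00000004232), another neuronal Delta gene, the intragenic region on chromosome 5, 36095281 to 36095938, held 333 against 426 (−0.35, −0.57 to −0.14), and the upstream region held 248 against 221 (0.17, −0.10 to 0.44). Its lower value was thus intragenic, as was the lower of the 2 values at dla. The only region of dll4 (ENSDARG00000070425), the Delta-like ligand of arterial endothelium, was intragenic, on chromosome 20, 28349025 to 28349309. It held 38 against 66 reads (−0.78, −1.40 to −0.18), or 1.72-fold lower, and 11.4% of regions in the same level decile had a value as low or lower.

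Regions assigned to Jagged ligand genes lay close to 0. Over 6 regions of jag1a, jag1b, jag2a and jag2b the sum was 1306 normalised reads in the mutant library against 1276 in wild type, a log2 ratio of 0.03 (−0.08 to 0.14). None of the 6 went beyond its counting interval, and their median of 0.03 turned to −0.004 with the level trend removed and to −0.05 with level and promoter class medians removed. The jag1a promoter (ENSDARG00000030289) held 240 against 247 (−0.04, −0.31 to 0.22), that of jag2a (ENSDARG00000014246) 337 against 325 (0.05, −0.17 to 0.28), and that of jag2b (ENSDARG00000021389) 449 against 438 (0.04, −0.15 to 0.23). The intragenic region of jag1b (ENSDARG00000013168) held 193 against 163 (0.24, −0.07 to 0.55). The interval of the Jagged sum did not meet that of the Delta sum. As the groups were split after the values were seen, this gap is no test of a class difference. It compares the reads of 2 libraries, not the genotypes, and leaves out the spread between regions. The gap also covers assigned regions alone. Of unassigned regions within 50 kb, 2 of 6 around jag2b and 1 of 3 around dld were lower beyond the counting interval. None around the other ligand genes was lower or higher beyond it. Near all ligand genes 3 of 20 were lower and 0 higher (15.0% and 0%), beside 23.7% and 15.0% of all regions without an assigned gene.

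The receptor genes were near 0 at their promoters, with an exception inside notch2. The notch1a promoter (ENSDARG00000103554), the deepest receptor region, held 1202 normalised reads in the mutant library against 1266 in wild type (−0.07, −0.19 to 0.04), and its 2 intragenic regions had 0.09 and −0.23. At notch1b (ENSDARG00000052094) the promoter held 199 against 196 (0.02, −0.27 to 0.31). The TSS region of notch3 (ENSDARG00000052139) held 102 against 103 (−0.01, −0.42 to 0.39), and a region 5138 bp into the gene held 405 against 453 (−0.16, −0.36 to 0.04). All of these intervals included 0.

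At notch2 (ENSDARG00000043130) the promoter region held 141 against 156 normalised reads (−0.14, −0.49 to 0.19) and a region 898 bp upstream 58 against 64 (−0.14, −0.69 to 0.39). The region on chromosome 8, 19521296 to 19521596, lay 4546 bp into the gene and held 34 against 78 reads, a log2 ratio of −1.17 (−1.83 to −0.59), or 2.26-fold lower. It was the lowest of all 82 regions, and 2.05% of regions in its level decile had a value as low or lower. Differences of 2-fold in either direction were more common among shallow regions. They occurred in 7.48% of all regions whose mean lay between 50 and 100, this one included, and in 0.963% of those at 500 and over.

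Among the modifiers, nrarpa stood lowest. Nrarp genes encode small ankyrin repeat proteins that are switched on by Notch and dampen its nuclear complex. At nrarpa (ENSDARG00000091419) on chromosome 10 the TSS region lay at 10905840 to 10906287, and its 363 normalised reads in the mutant library compared with 539 in wild type (−0.57, −0.77 to −0.37). The region 1327 bp upstream, 10907222 to 10907617, held 348 against 554 (−0.67, −0.87 to −0.47), or 1.59-fold lower. Both regions lay within the lowest 1.06% of their level decile. Its paralog nrarpb (ENSDARG00000018958) held 343 against 342 at its promoter (0.004, −0.22 to 0.23).

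The nuclear partners of the receptor differed little. The rbpjb promoter (ENSDARG00000052091) held 814 against 908 normalised reads (−0.16, −0.30 to −0.02) and that of rbpja (ENSDARG00000003398) 536 against 564 (−0.07, −0.25 to 0.10). The deepest modifier region, at the TSS of the coactivator gene maml3 (ENSDARG00000079552), held 1080 against 1069 (0.01, −0.11 to 0.14). At maml1 (ENSDARG00000076466), a second coactivator gene, the region inside the gene had −0.33 (−0.57 to −0.11) and the region upstream 0.17 (−0.17 to 0.52).

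Genes that act on ligands and receptors went in both directions. At mib1 (ENSDARG00000102184), the ubiquitin ligase that drives ligand uptake, the promoter held 193 against 237 normalised reads (−0.29, −0.58 to −0.01). The fringe gene lfng (ENSDARG00000037879), whose product adds sugars to Notch receptors, lay above 0 at all 3 regions, and its sum of 1016 against 921 gave 0.14 (0.01 to 0.27). Its intragenic region, 1984 bp from the TSS, held 140 against 105 (0.41, 0.03 to 0.78). The intragenic region of mfng (ENSDARG00000042925), another fringe gene, held 49 against 31 (0.64, −0.02 to 1.35). These fringe values were higher in the mutant library, although the mfng interval included 0. The lfng TSS region, with 0.10, was near the median of 0.11 over all regions within 1 kb of a TSS. Of 9 unassigned regions nearest to lfng, 4 lay below 0, and 3 were lower and 0 higher beyond the counting interval. Over all regions without an assigned gene 58.7% lay below 0, 23.7% were lower and 15.0% higher. The promoter of numb (ENSDARG00000027279), whose product inhibits Notch receptors, had 131 against 100 (0.39, −0.003 to 0.77) and that of numbl (ENSDARG00000101949) 431 against 440 (−0.03, −0.23 to 0.17). At dtx4 (ENSDARG00000078016), a Deltex gene, the promoter was higher, with 422 against 339 (0.32, 0.11 to 0.53), and the region 4468 bp upstream lower, with 576 against 697 (−0.27, −0.44 to −0.11).

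**Figure D2:**
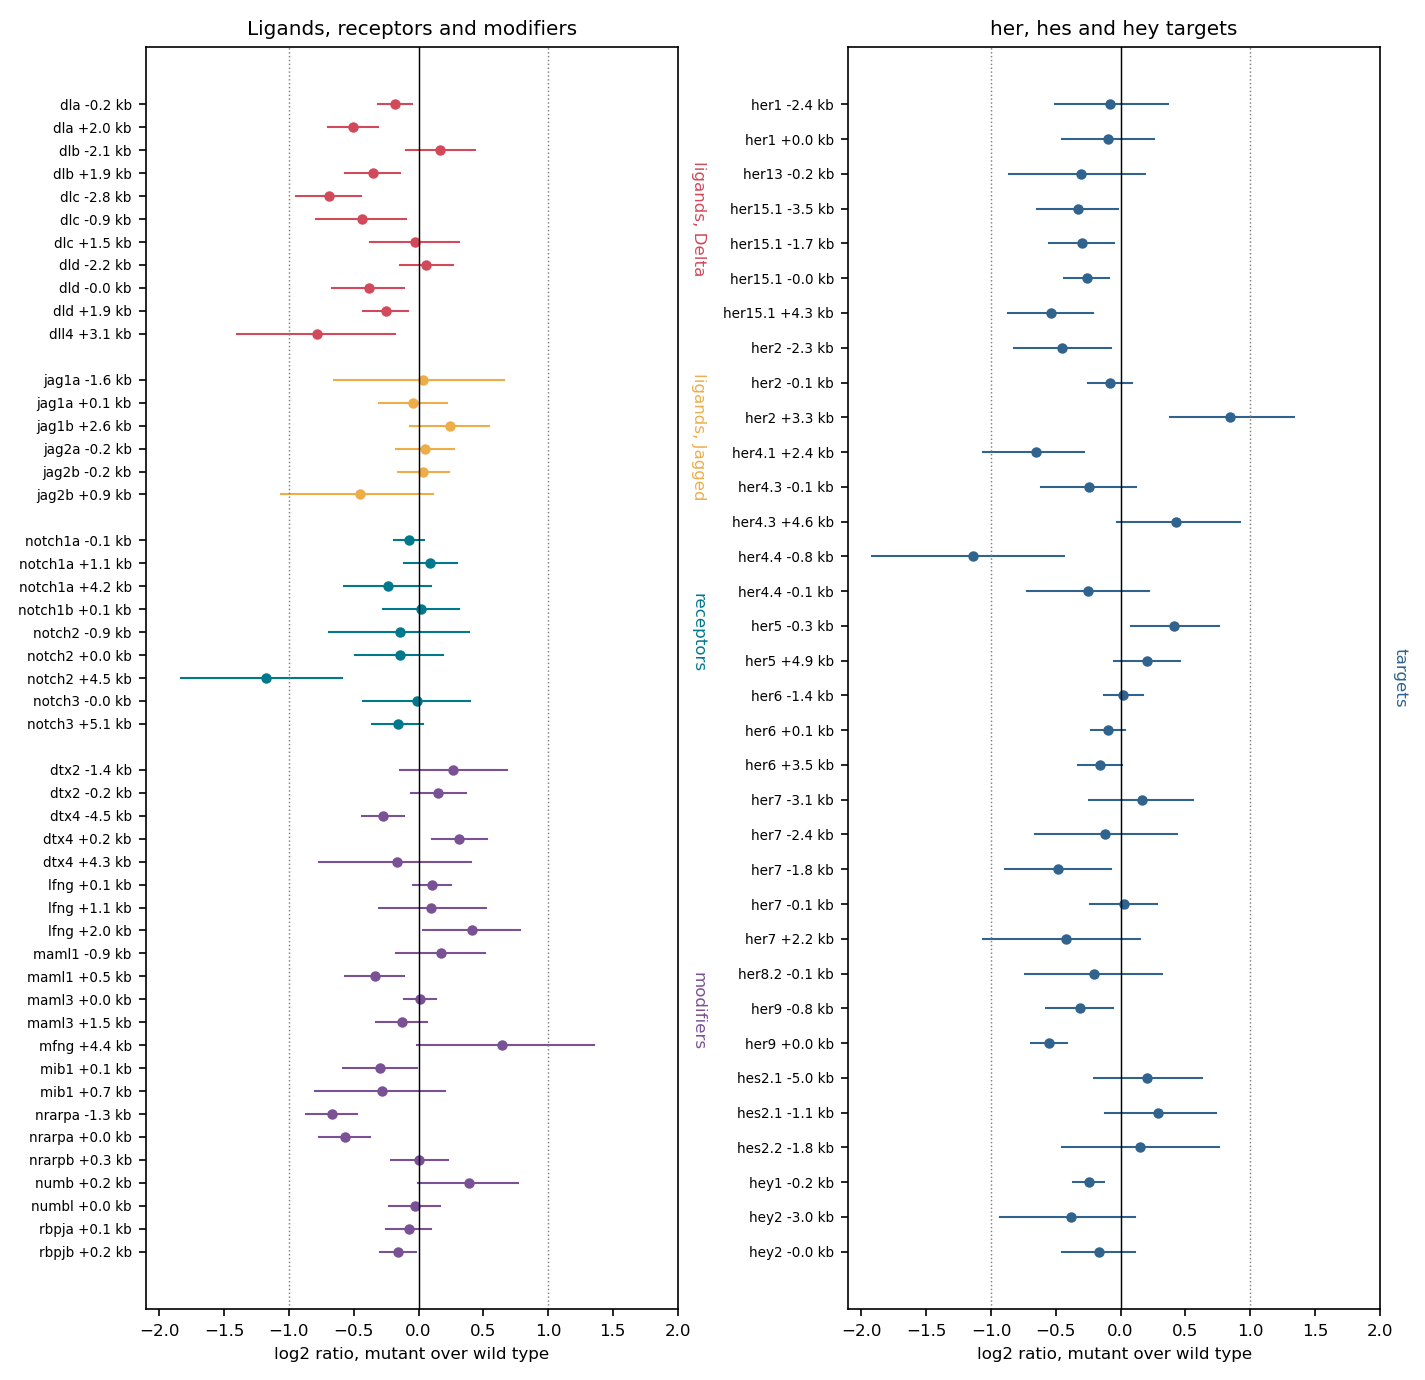
Log2 ratio of mutant over wild type (x axis) for each of the 82 regions at Notch genes, labelled on the y axis by gene and distance from the TSS in kb, with negative distances upstream. Points are the values, bars the 95% counting intervals, the dotted lines 2-fold, and colours the roles. Delta regions lie mostly left of 0, and Jagged regions all have bars that cross 0. The values farthest left are at notch2 and her4.4, followed by those at dll4 and dlc.

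The her genes held most of the target regions, 28 of 34, and likewise most of those below 0, 21 of 24. Of 28 regions at 12 her genes, 21 lay below 0 (median −0.22), and 10 were lower and 2 higher beyond the counting interval. These are 35.7% and 7.14%, near the 32.4% and 5.88% of all target regions, beside 12.0% and 25.3% of all assigned regions. The sum over the her regions was 6722 normalised reads in the mutant library against 7617 in wild type, a log2 ratio of −0.18 (−0.23 to −0.13). All 3 hey regions lay below 0 and all 3 hes2 regions above it, beside 39.5% of all assigned regions below 0. Targets within 1 kb of a TSS were lower, at 13 of 15 regions and a median of −0.24, than those farther away, at 11 of 19 and a median of −0.12, a difference that was not tested. Of all regions within 1 kb 36.0% lay below 0 (median 0.11), and of all assigned regions beyond 1 kb 49.9% (median 0.00).

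Of the target regions with a mean of 500 normalised reads and over, the lowest value was at her9 (ENSDARG00000056438). This gene encodes a repressor that marks territories between the proneural domains of the neural plate, where its expression is known not to need Notch. The TSS region on chromosome 23, 23474436 to 23474991, held 731 normalised reads in the mutant library against 1071 in wild type, a log2 ratio of −0.55 (−0.69 to −0.41), or 1.46-fold lower. A region 839 bp upstream held 228 against 284 (−0.32, −0.57 to −0.06). Of the regions in its level decile, 1.17% had a value as low as the TSS region or lower. Assigned regions of its relative her6 (ENSDARG00000006514) were closer to 0, with 922 against 989 at the promoter (−0.10, −0.23 to 0.03). Upstream 754 compared with 743 (0.02, −0.13 to 0.17), and downstream 545 with 609 (−0.16, −0.33 to 0.01). Of unassigned regions nearest to each gene, 2 of 7 at her6 and 2 of 9 at her9 were lower beyond the interval and 0 higher. Over all regions without an assigned gene these shares were 23.7% and 15.0%.

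All 4 regions of her15.1 (ENSDARG00000054562), a hes5-like Notch target of the neural plate, were lower beyond the counting interval. On chromosome 11 the TSS region, 41370059 to 41370442, held 506 against 607 normalised reads (−0.26, −0.44 to −0.09). The upstream regions at 3502 and 1668 bp held 154 against 194 (−0.33, −0.65 to −0.02) and 239 against 294 (−0.30, −0.55 to −0.05). The downstream region, 41374378 to 41374664, held 135 against 196 (−0.53, −0.87 to −0.21), the largest difference of the 4. Summed over the gene, 1034 against 1291 gave −0.32 (−0.44 to −0.20).

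The neighbouring her2 (ENSDARG00000038205) held regions of opposite direction. Its TSS region had 572 against 606 normalised reads (−0.08, −0.25 to 0.08) and its region 2261 bp upstream 105 against 144 (−0.45, −0.83 to −0.07). The intragenic region, chromosome 11, 41354258 to 41354536, held 105 in the mutant library against 58 in wild type (0.85, 0.38 to 1.34), or 1.797-fold higher, the highest of the 82 regions and the largest difference short of 2-fold. Regions of her15.1 were therefore lower and those of her2 mixed.

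Regions of the her4 genes, whose transcripts mark Notch activity in neural progenitors, were mostly lower but shallow. The region 2427 bp downstream of the her4.1 TSS (ENSDARG00000056732), chromosome 23, 21524521 to 21524751, held 93 against 147 normalised reads (−0.65, −1.06 to −0.28). At her4.4 (ENSDARG00000009822) the region 821 bp upstream, 21545232 to 21545424, held 24 against 54 (−1.14, −1.92 to −0.43), or 2.2-fold lower, and the TSS region 73 against 87 (−0.25, −0.72 to 0.22). In the level decile of the upstream region, 6.54% of regions had a value as low or lower. Differences of 2-fold in either direction occurred in 19.2% of all regions whose mean lay between 20 and 50. The promoter of her4.3 (ENSDARG00000070770) held 118 against 140 (−0.24, −0.61 to 0.12), and a region 4627 bp downstream of its TSS went the other way with 89 against 66 (0.43, −0.03 to 0.92). Over the 9 regions of her4.1, her4.3, her4.4 and her15.1, 8 lay below 0. Regions of the copies her4.2 and her15.2 carried no symbol in the deposited table and are not in this count. They lay on both sides of 0, with 0.04 at her4.2 and −0.25, −0.06 and 0.23 at her15.2. These genes have close copies in the same clusters, and the sources used here do not say how reads that fit several copies were placed, so their values are uncertain.

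Most regions assigned to the segmentation clock genes her1 and her7 showed small differences. The her1 TSS region (ENSDARG00000014722), on chromosome 5, held 130 normalised reads in the mutant library against 139 in wild type (−0.10, −0.45 to 0.26). The her7 TSS region (ENSDARG00000017917) held 252 against 248 (0.02, −0.23 to 0.28), which turned to between −0.07 and −0.01 under 3 other scalings. Of the 7 regions at these neighbouring genes, the one 1807 bp upstream of her7 was lower beyond its counting interval, with 89 against 125 (−0.49, −0.89 to −0.08). In sum the 7 regions held 771 against 825 (−0.10, −0.24 to 0.05). The 1 unassigned region nearest to her1, 5.27 kb downstream of its TSS, was shallow and lower, with 19 against 38 (−0.96, −1.86 to −0.13). The promoter of her13 (ENSDARG00000007097), which the name table lists as HES6, held 58 against 72 (−0.31, −0.86 to 0.19).

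Other targets lay on both sides of 0. The promoter of hey1 (ENSDARG00000070538), a Hey repressor gene and the deepest target region, held 1070 normalised reads in the mutant library against 1269 in wild type (−0.25, −0.37 to −0.13) on chromosome 19, 32214962 to 32215430. That of hey2 (ENSDARG00000013441), the arterial repressor gene known as gridlock, held 199 against 224 (−0.17, −0.46 to 0.11). The midbrain-hindbrain gene her5 (ENSDARG00000008796) was higher, with 169 against 127 at its promoter (0.41, 0.08 to 0.76) and 272 against 236 downstream (0.20, −0.05 to 0.46). The 3 hes2.1 and hes2.2 regions, with 51 to 105 normalised reads in the mutant against 46 to 91 in wild type, had 0.15 to 0.29, all with intervals that included 0.

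Lower values at Notch genes were found both at promoters and away from them. Of 41 Notch gene regions within 1 kb of a TSS, 29 lay below 0 (median −0.14), while 36.0% of all such regions did, with a median of 0.11. At 12 of the 41 the region was lower beyond the counting interval and at 2 it was higher, which is 29.3% and 4.88%, beside 9.67% and 27.2% of all regions within 1 kb. Away from the TSS, 24 of 41 regions lay below 0 (median −0.13), beside 49.9% of all assigned regions beyond 1 kb. There 14 of the 41 were lower and 2 higher beyond the counting interval, which is 34.1% and 4.88%, beside 18.7% and 19.7%. The summed log2 ratio was −0.17 away from the TSS and −0.13 at promoters. After removal of level and promoter class medians the promoter median was −0.24 but the median away from the TSS was −0.02. For the latter, the class held all regions not within 1 kb of a TSS, 4448 assigned and 18370 without an assigned gene. It is thus not a comparison with assigned regions alone. Among Notch gene regions with a mean of 500 normalised reads and over, 12 of 15 lay below 0, beside 34.4% of all regions that deep.

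**Figure D3:**
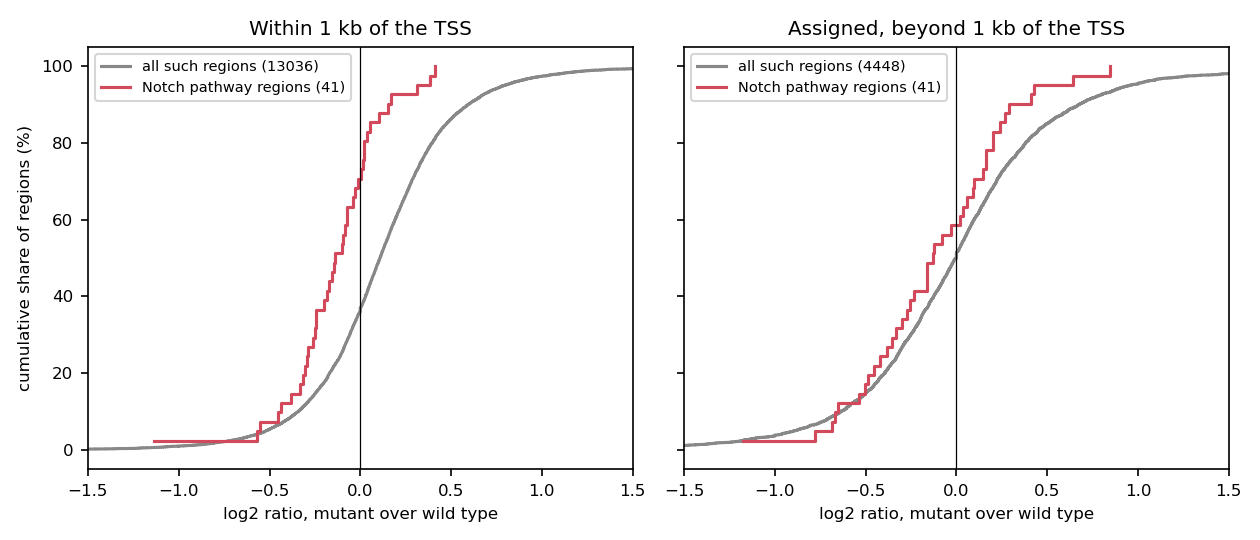
Cumulative share of regions in percent (y axis) up to each log2 ratio of mutant over wild type (x axis), for regions within 1 kb of a TSS (left) and assigned regions farther away (right). Red lines are the Notch gene regions, 41 in each panel, and grey lines all regions of the same kind. Just below a ratio of 0 the red line on the left stands at 70.7% and the grey line at 36.0%, while on the right they stand at 58.5% and 49.9%.

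Summed over all regions of a gene, 13 of 42 Notch genes were lower beyond the counting interval and 2, lfng and her5, were higher. Over all 14589 genes summed the same way, 11.2% were lower and 27.1% higher. The lower ones comprised 4 of 9 ligand genes (dll4, dlc, dla, dld), 1 of 4 receptor genes (notch2), 3 of 13 modifier genes (nrarpa, mib1, rbpjb) and 5 of 16 target genes (her4.1, her4.4, her9, her15.1, hey1). The lowest sums were those of dll4 (−0.78), her4.1 (−0.65), nrarpa (−0.62), her4.4 (−0.54), her9 (−0.50) and dlc (−0.46). Counting intervals understate the spread between 2 embryos, so this order is that of the libraries.

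**Figure D4:**
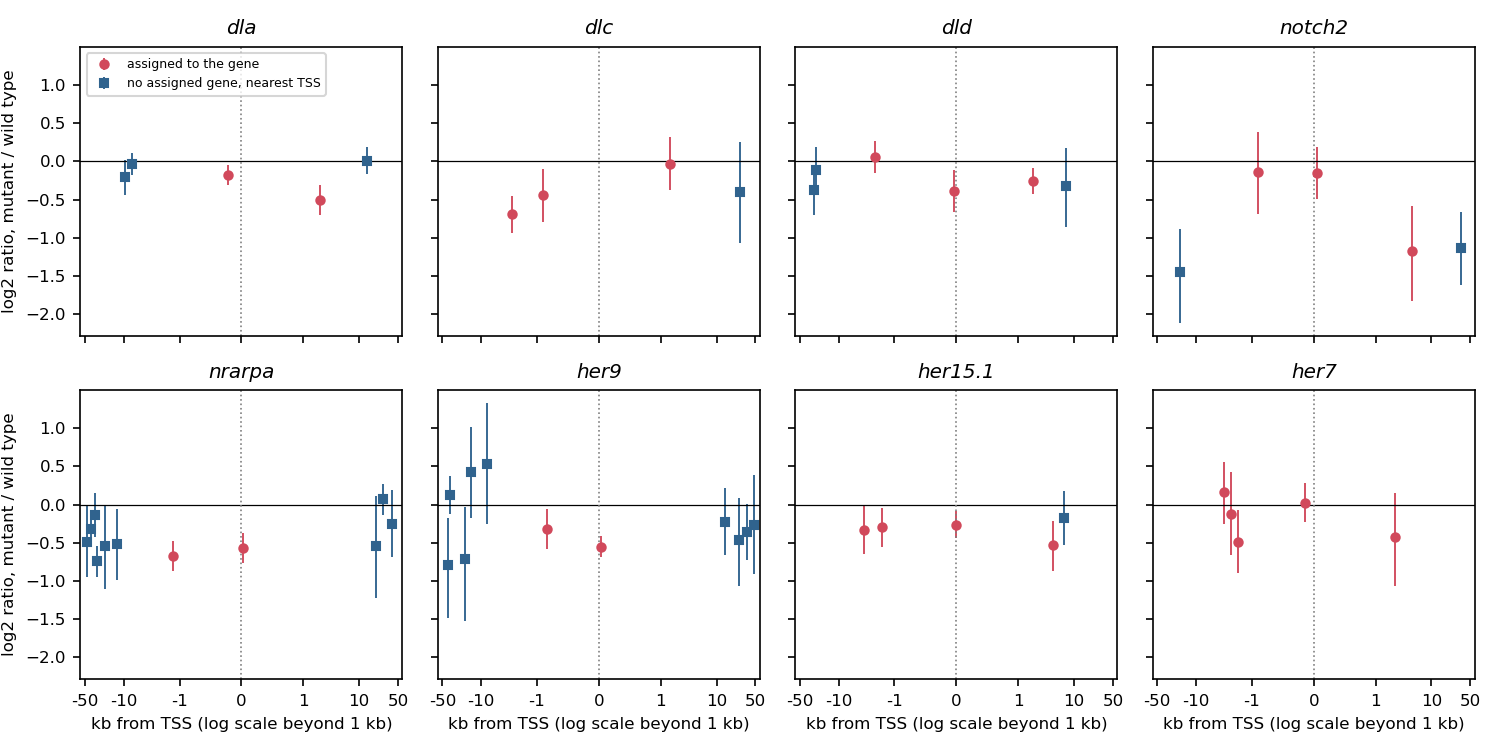
Log2 ratio of mutant over wild type (y axis) against distance from the TSS in kb (x axis, log scale beyond 1 kb, negative upstream) for 8 genes chosen after their values were seen. Circles are regions assigned to the gene, squares regions without an assigned gene whose nearest TSS in the table is that of the gene, and bars 95% counting intervals. At nrarpa 10 of 11 points lie below 0, while at her7 the TSS point is close to 0.

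Genes of the pathway outside the rule were split around 0 as scaled by the authors. Of 41 listed genes, among them the proteases that cut the receptor, glycosyltransferases, corepressors and proneural genes, 33 had regions in the table. Their 42 regions had a median of −0.03, beside 0.08 over all assigned regions, and of −0.13 with level and promoter class medians removed. Of the 42, 22 lay below 0, and 8 were lower and 7 higher beyond the counting interval. These are 19.0% and 16.7%, beside 12.0% and 25.3% of all assigned regions. The sum over the 42 regions, 14934 against 14899, gave 0.003 (−0.03 to 0.04). The lowest were an intragenic region of the neuronal bHLH gene neurod4 (−0.49, −0.77 to −0.22) and an upstream region of the corepressor gene spen (−0.45, −1.002 to 0.07). Highest were the promoters of the endocytic adaptor gene epn1, with 109 against 43 normalised reads (1.32, 0.81 to 1.87), and of the acetyltransferase gene kat2b, with 151 against 94 (0.68, 0.31 to 1.07).

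Marker genes of the cell types that use Notch moved by different amounts, and their part in the values above was not tested. Of all assigned regions 39.5% lay below 0, and 12.0% were lower and 25.3% higher beyond the counting interval. Of 17 regions at 9 presomitic mesoderm markers 14 lay below 0 (median −0.47), and their sum was 2225 normalised reads in the mutant library against 2834 in wild type. Beyond the interval 12 were lower (70.6%) and 2 higher (11.8%). The 2 higher were a tbx6 region, 34 against 8 (1.96, 0.91 to 3.26), and the mespab promoter, 46 against 24 (0.91, 0.17 to 1.67). Neural markers had 15 of 24 regions below 0, a median of −0.08 and a sum of 7948 against 8057, with 2 lower and 3 higher beyond it. At endothelial markers 8 of 11 regions, at 6 of 9 listed genes, lay below 0 (median −0.36, sum 4505 against 5128). Beyond the interval 6 were lower and 1 higher, the latter at fli1a with 455 against 390 (0.22, 0.02 to 0.42). Most of the endothelial sum came from the neighbouring genes etv2 and fli1b on chromosome 16, between 42059124 and 42069971. All 6 regions of epidermal markers lay below 0 (median −0.33, sum 761 against 999), 3 of them beyond the interval. The 2 regions of muscle and yolk markers went in opposite directions. The promoter of the muscle gene myod1 held 165 against 216 (−0.39, −0.69 to −0.09), and the region of ttr, a gene of the yolk syncytial layer, 40 against 14 (1.45, 0.63 to 2.49). No marker region was at 0 in either library.

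The 4 regions that matched by letters alone lay on both sides of 0. The promoter of mibp2, a kinase gene, held 1431 against 1647 normalised reads (−0.20, −0.31 to −0.10) and that of mibp 328 against 269 (0.29, 0.05 to 0.53). The jagunal genes jagn1a and jagn1b held 40 against 60 (−0.57, −1.19 to 0.03) and 38 against 39 (−0.04, −0.72 to 0.64).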

How the data were processed

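ATAC-seq libraries came from 1 wild type and 1 npas4l mutant embryo, grouped by the genotype in the labels. The build was GRCz10 (danRer10), and STAR 2.5.3a, MACS2, DESeq2 1.14.1, DESeq, Trimmomatic 0.36, deepTools 2.5.4 and Picard 2.9.0 are listed without roles, per the submitters' processing notes. Region merging, duplicate removal and Tn5 shifting are not given in the sources used here. Coordinates are as in the deposited table on GRCz10, with the base of the starts not stated. The deposited library columns are scores, read counts that the authors normalised and rounded, as the mutant values show. Of mutant values up to 4000, 99.96% are a whole number times 1.065, beside 94.03% of wild type values tried with the same factor. The wild type factor was not found from its own values but taken as the reciprocal, an assumption. Reads so recovered served only for counting intervals. The deposited log2 ratio equals the one computed here with a pseudocount of 1. The deposited fraction of a region inside the gene body, per the file headers, set its place.

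Fold rules of 2 and 1.5 were applied to all regions. Named regions were the deepest region of each ligand and receptor gene, those at least 1.5-fold different with an interval without 0, the 2 deepest modifier and target regions, and the values nearest to 2-fold on either side. Other member regions were described after their values were seen. Members and lists were chosen with earlier results of these data known. The procedure was also run on simulated counts that had counting error alone and the reciprocal wild type factor built in. That run could not check the assumed factor or the spread between embryos. No sequence or motif was analysed here. Software was scipy 1.17.1, pandas 2.3.3, numpy 2.4.6 and matplotlib 3.10.9 under Python 3.11.15.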

Additional observations from a re-analysis of the deposited data

How the results depend on the processing

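The count of member regions at least 2-fold lower was small and moved with most choices. It was 2 as reported, 1 with the level trend removed, with a pseudocount of 10, with a mean of at least 50, with regions within 1 kb of the TSS alone or without the her4 and her15 copies, and 0 with 1 region per gene. With nearby unassigned regions added (chosen after seeing the data, like leaving out the her4 and her15 copies or the 4 jagunal and mibp regions) it was 9. Of the 97 added regions 7 were at least 2-fold lower, near the 6.20% of all regions without an assigned gene. By a 1.5-fold rule 6 of 86 regions were lower and 2 higher, beside 5.94% and 11.1% of all assigned regions, so the lower count was near that of the table. The median log2 ratio of the members stayed below 0, between −0.12 and −0.19, under the 6 scaling and pseudocount settings. Without the her4 and her15 copies it was closer to zero, at −0.10. Medians of the 4 classes were below 0 under each alternative run, and moved by less than the 95% order-statistic interval of the reported median. The 32 member regions beyond their counting interval kept their sign under 3 other scalings, while 12 of all 86 changed it under at least 1. No paired analysis was possible because each genotype had 1 library, and for the same reason no library could be left out. Depth limits regions under 100 normalised reads most.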

Other observations

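Unassigned regions around the Notch genes were examined after the main values were seen. There were 97 whose nearest TSS in the table was that of a Notch gene within 50 kb, of which 70 lay below 0, 36 were lower and 2 higher beyond the counting interval. They had a median of −0.25, beside −0.12 over all regions without an assigned gene, of which 58.7% lay below 0, 23.7% were lower and 15.0% higher beyond the interval. With level and promoter class medians removed the median was −0.15. The 97 regions were deeper than all regions without an assigned gene, with a median mean of 109.5 normalised reads beside 69, so their intervals were narrower. By class, 3 of 20 regions near ligand genes were lower beyond the interval, 11 of 22 near receptors, 12 of 28 near modifiers and 10 of 27 near targets. Higher were 0, 1, 1 and 0 in that order. The lower regions near ligand genes were 2 of 6 around jag2b and 1 of 3 around dld. Those of jag2b held 26 against 61 normalised reads at 38.9 kb downstream (−1.20) and 61 against 91 at 28.2 kb upstream (−0.57). That of dld held 138 against 179 (−0.37). Among ligand genes with at least 3 such regions, those below 0 were 4 of 6 at jag2b, 2 of 4 at jag1b, 3 of 3 at dld and 2 of 3 at dla. Around notch3 5 of 10 regions were lower and 0 higher, and around notch1a 2 of 5 were lower and 1 higher. Around nrarpa 8 of 9 such regions lay below 0, and the one 30.6 kb upstream held 325 normalised reads in the mutant library against 542 in wild type (−0.74, −0.94 to −0.54). Both regions near notch2 were low, with 33 against 92 at 19.1 kb upstream (−1.45, −2.11 to −0.88) and 56 against 124 at 33.5 kb downstream (−1.13, −1.62 to −0.66). The notch2 promoter itself had −0.14. Both regions upstream of hey1 were lower, with 142 against 232 at 14.4 kb (−0.70, −1.03 to −0.40) and 49 against 85 at 21.5 kb (−0.78, −1.35 to −0.28). At notch1b, whose promoter had 0.02, regions 21.7 and 19.5 kb downstream held 92 against 161 (−0.80, −1.20 to −0.43) and 230 against 367 (−0.67, −0.92 to −0.43), while 2 others held 374 against 369 and 295 against 289. Whether these regions act on the gene with the nearest TSS was not tested.

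The name table gave member symbols to 10 regions that carried none in the deposited table, at her4.2, her8a, her12 and her15.2. The promoter of her12, a her gene of the presomitic mesoderm, held 157 against 226 normalised reads (−0.52, −0.83 to −0.23), and its other regions held 43 against 61 and 60 against 78. The TSS region of her15.2 held 346 against 412 (−0.25, −0.46 to −0.04), while its other 2 regions held 67 against 70 (−0.06) and 89 against 76 (0.23), both with intervals that included 0. All 3 her8a regions had −0.16 to −0.10 with intervals that included 0, and the her4.2 promoter held 115 against 112.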
